A study of Homo sapiens with 6 samples.

Results

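The replication-dependent histone genes encode the histones that package newly copied DNA. They were chosen by name, as all genes whose older symbol begins HIST1H, HIST2H, HIST3H or HIST4H, and make up 70 of the 20046 genes measured. By class they are 6 linker histone H1 genes, 17 H2A, 18 H2B, 14 H3 and 15 H4 genes. Of these, 55 lie in the HIST1 cluster on chromosome 6, 11 in HIST2 and 3 in HIST3 on chromosome 1, and 1 in HIST4 on chromosome 12. Expression was measured in the immortalized human mammary epithelial line HMLE, to ask how docosahexaenoic acid (DHA), an omega-3 fatty acid that incorporates into membranes, alters the transcription of cells driven into an epithelial-mesenchymal transition (EMT). The 6 conditions were Vector cells, cells with ectopic Snail, and cells given TGFb at 1 ng/ml per the labels, each without DHA and with DHA at 20 μM. A single Illumina HumanHT-12 v4 array was run per condition, without replicates, and this small number of arrays limits precision. Cells carrying ectopic Snail were stably expressing lines, and neither the number of clones nor the time under TGFb or DHA is given in the labels.

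Between 37.0% and 44.9% of probes were above background on an array, with the most on Vector and the fewest on Snail+DHA. The epithelial cadherin CDH1 had a log2 signal of 11.46 on Vector, 6.39 on Snail and 11.52 on TGFb. The mesenchymal filament gene VIM had 11.62, 14.23 and 13.40 on these arrays. SNAI1, the endogenous gene of Snail, was above background on none of the arrays, so its probe gives no check of the Snail label. Of the 4 leukocyte markers measured 1 (CD14) was above background, and of the 3 endothelial markers 1 (PECAM1), while PTPRC, CD3E, ITGAM, CDH5 and VWF were above it on no array.

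Histone synthesis is coupled to DNA synthesis. Replication-dependent histone genes lack introns, and their mRNAs end in a conserved stem-loop in place of a poly(A) tail. The stem-loop is bound by SLBP, which directs processing, export and translation, and the mRNAs are degraded when DNA synthesis stops. The core histones H2A, H2B, H3 and H4 form the nucleosome, and H1 binds the linker DNA between nucleosomes. Some of these genes also make polyadenylated transcripts, for example in differentiated or non-dividing cells. The arrays were labelled from an oligo-dT primer, which favors polyadenylated forms. Which form each probe read is not known, and the amount of stem-loop mRNA was not measured separately.

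Promoters of 5 members that were at least 2-fold apart in a pair of arrays are shown, as examples of the elements counted below in the H1, H2A, H2B and H4 classes. Each is the 250 bases before the RefSeq start on GRCh38.p14, 5′ to 3′ on the gene's strand, with the motifs found on either strand in capitals. The motifs searched were the TATA box TATAAA, the CCAAT box CCAAT, the octamer ATTTGCAT, the H1 box AAACACA and GGTCC, the core of an H4-specific element. H1-2 (chr6:26056471-26056720, minus strand) has the H1 box on both strands and a CCAAT box. H2AC18 (chr1:149842751-149843000, minus strand) has a pair of CCAAT boxes and a TATA box. H2AC20 (chr1:149886668-149886917, plus strand) holds an octamer, several CCAAT boxes, GGTCC and TATA boxes on both strands, and reaches the start of the H2B gene H2BC21 on the other strand. H2BC9 (chr6:26251364-26251613, plus strand) has the octamer close to its start, with CCAAT boxes on both strands and GGTCC before it and no TATAAA. H4C12 (chr6:27831561-27831810, minus strand) has GGTCC followed by a TATA box and no CCAAT box.
H1-2: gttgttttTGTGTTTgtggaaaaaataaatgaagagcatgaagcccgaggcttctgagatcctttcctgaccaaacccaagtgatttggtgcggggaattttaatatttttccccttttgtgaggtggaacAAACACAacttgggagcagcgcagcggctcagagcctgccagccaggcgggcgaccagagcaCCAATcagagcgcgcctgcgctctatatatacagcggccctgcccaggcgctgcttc
H2AC18: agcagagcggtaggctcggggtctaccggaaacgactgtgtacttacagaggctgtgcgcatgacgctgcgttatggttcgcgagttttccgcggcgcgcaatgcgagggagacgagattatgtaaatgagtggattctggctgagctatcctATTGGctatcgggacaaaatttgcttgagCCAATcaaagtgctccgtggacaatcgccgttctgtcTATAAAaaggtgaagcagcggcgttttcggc
H2AC20: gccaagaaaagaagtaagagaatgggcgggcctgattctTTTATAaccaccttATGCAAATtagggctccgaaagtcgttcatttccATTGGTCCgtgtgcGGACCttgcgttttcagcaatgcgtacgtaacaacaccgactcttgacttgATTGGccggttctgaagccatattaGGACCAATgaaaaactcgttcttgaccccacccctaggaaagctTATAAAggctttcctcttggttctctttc
H2BC9: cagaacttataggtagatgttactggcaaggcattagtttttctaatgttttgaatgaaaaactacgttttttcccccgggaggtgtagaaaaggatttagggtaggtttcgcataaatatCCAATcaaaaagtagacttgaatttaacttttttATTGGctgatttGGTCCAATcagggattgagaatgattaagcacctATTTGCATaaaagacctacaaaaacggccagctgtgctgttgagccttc
H4C12: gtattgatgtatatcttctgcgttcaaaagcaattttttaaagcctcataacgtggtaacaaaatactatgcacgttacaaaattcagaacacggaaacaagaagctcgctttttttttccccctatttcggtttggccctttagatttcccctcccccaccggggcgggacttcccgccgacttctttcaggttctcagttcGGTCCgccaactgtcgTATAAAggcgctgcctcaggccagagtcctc

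Of the 70 members, 65 matched the RefSeq promoter table. TATAAA was found in 43 of them (66.2%), against 11.1% of all 27305 promoters of the same length. CCAAT was in 55 (84.6%, against 33.0%), which were all H1, H2A, H2B and H3 promoters matched and 3 of the 13 H4 promoters. The octamer was in 14 of 18 H2B and 11 of 16 H2A promoters, in 26 of the 65 members matched and in 1.66% of all promoters. The H1 box was in all 6 H1 promoters and in no other member (all promoters, 4.95%). GGTCC was in 12 of 13 H4 promoters, though as a 5-base word it was also in 40.4% of all promoters. A match is a run of letters and not a measured binding site.

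Most histone genes were weakly detected or not detected. On at least 1 array 40 of the 70 were above background, on all 6 arrays 19, and on none 30. By class, 2 of 6 H1, 9 of 17 H2A, 10 of 18 H2B, 10 of 14 H3 and 9 of 15 H4 genes were above background on at least 1 array, and 1, 5, 5, 2 and 6 of them on all. The HIST2 cluster had 9 of its 11 genes above background and HIST1 29 of its 55. The 19 genes of the plot of log2 levels are the ones measured in every condition. For the 30 genes not above background anywhere, no level or difference is given.

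**Figure D1:**
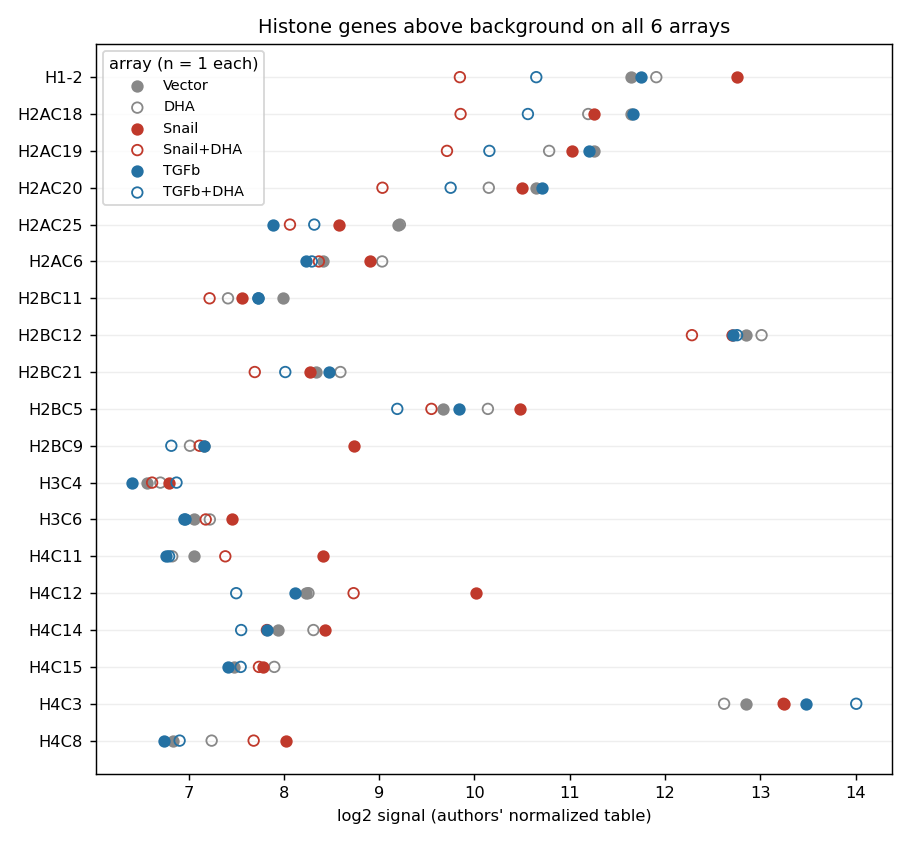
Log2 signal of the 19 histone genes above background on all 6 arrays (y axis, by class), 1 point per array; filled points are arrays without DHA and open points arrays with DHA, in grey for Vector, red for Snail and blue for TGFb. H1-2 spans from 9.85 on Snail+DHA to 12.76 on Snail, and H2AC18, H2AC19 and H2AC20 are lowest on Snail+DHA and next lowest on TGFb+DHA.

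Snail and TGFb without DHA were first set against Vector, to see where the histone genes stood before DHA. In Snail cells 5 of the 37 histone genes above background on either array were at least 2-fold higher than in Vector cells and 0 were lower (all genes, 4.18% higher and 4.41% lower). The 5 were 3 H4 genes, 1 H2B gene and the linker histone gene H1-2. H4C12 (HIST1H4K), one of many genes for the same H4 protein, had a log2 signal of 8.23 on Vector, 8.26 on DHA, 10.01 on Snail, 8.73 on Snail+DHA, 8.11 on TGFb and 7.50 on TGFb+DHA. Snail was thus the highest array, 3.43-fold above Vector, and Snail+DHA the next. H4C11 (HIST1H4J), an H4 gene of the same cluster, had 7.05, 6.83, 8.41, 7.38, 6.76 and 6.79 in the same order of arrays, 2.56-fold higher in Snail. H4C8 (HIST1H4H) had 6.83, 7.24, 8.02, 7.68, 6.74 and 6.90, 2.28-fold higher in Snail. In both genes the Snail arrays lay above the other arrays.

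The H2B gene H2BC9 (HIST1H2BH) had 7.16 on Vector, 7.01 on DHA, 8.74 on Snail, 7.11 on Snail+DHA, 7.16 on TGFb and 6.82 on TGFb+DHA. The Snail array stood alone, 2.98-fold above Vector, and the other arrays lay between 6.82 and 7.16. H1-2 (HIST1H1C), a linker histone gene that is also expressed outside S phase, was 2.16-fold higher in Snail than in Vector cells. The median difference over the 37 members was 0.11 on the log2 scale, beside 0.0036 over all genes, and the median over the 9 H4 genes was 0.43. With both DHA states in 1 limma fit, 0 histone genes were called for Snail in either direction, while 3.36% of all genes were called higher and 4.41% lower at an adjusted p of 0.05. At an unadjusted p of 0.05 the fit gave 5 of 40 histone genes higher and 3 lower, close to or below the share of all genes (10.6% higher and 11.4% lower). H4C8 had the lowest adjusted p of the members (0.82 ± 0.22, log2 difference ± SE, adjusted p = 0.065), followed by H4C11 (0.96 ± 0.26, adjusted p = 0.068) and H4C12 (1.13 ± 0.31, adjusted p = 0.073).

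**Figure D2:**
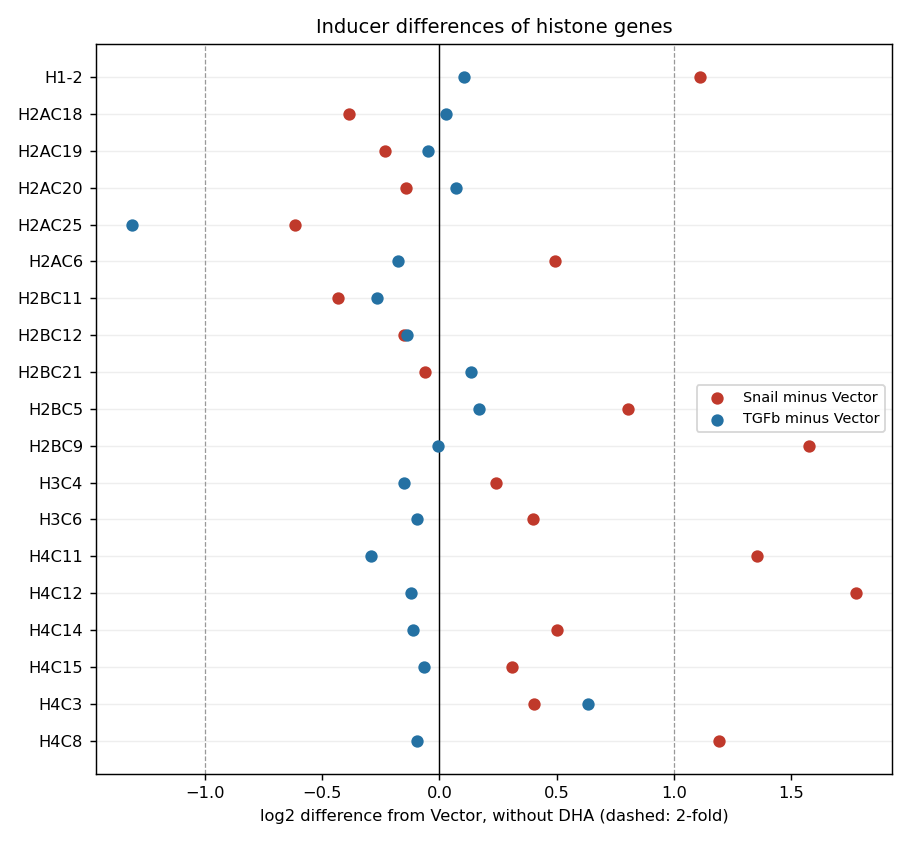
Log2 difference from Vector without DHA (x axis) of the 19 histone genes above background on all 6 arrays, for Snail in red and TGFb in blue; each point is 1 array against 1 array, and dashed lines mark 2-fold. H4C12, H2BC9, H4C11, H4C8 and H1-2 lie beyond 2-fold higher in Snail, and H2AC25 beyond 2-fold lower in TGFb.

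In TGFb cells 1 of 37 histone genes was at least 2-fold lower than in Vector cells and 0 were higher (all genes, 0.845% lower and 1.13% higher). That gene was H2AC25 (HIST3H2A), an H2A gene of the HIST3 cluster, with 9.20 on Vector, 9.22 on DHA, 8.58 on Snail, 8.06 on Snail+DHA, 7.88 on TGFb and 8.32 on TGFb+DHA. The Vector and DHA arrays lay above the 4 induced arrays, and TGFb was 2.48-fold below Vector. H4C3 (HIST1H4C) had 12.85, 12.62, 13.25, 13.25, 13.48 and 14.01 in the same order, so that the TGFb arrays were the highest, then the Snail arrays, then Vector and DHA. The median difference of the members between TGFb and Vector was −0.10, beside 0.02 over all genes. Over both DHA states 0 histone genes were called for TGFb, with 0.0074% of all genes called higher and 0.0518% lower. H4C3 (1.01 ± 0.20 SE, adjusted p = 0.41) and H2AC25 (−1.11 ± 0.27 SE, adjusted p = 0.58) were the only members at an unadjusted p of 0.05 in that limma fit, which is 1 of 40 in each direction beside 3.24% of all genes higher and 2.67% lower.

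DHA was then compared within each background. In Vector cells 0 of 40 histone genes differed by at least 2-fold with DHA (all genes, 0.297% higher and 1.29% lower). In Snail cells 7 of 35, or 20.0%, were at least 2-fold lower with DHA and 0 were higher (all genes, 2.4% lower and 1.29% higher). In TGFb cells 4 of 32, or 12.5%, were at least 2-fold lower and 0 were higher (all genes, 3.65% lower and 2.06% higher). The median difference of the members was 0.05 in Vector, −0.52 in Snail and −0.21 in TGFb cells, beside −0.0070, −0.02 and −0.04 over all genes. In Snail cells 34 of the 35 members had a lower value with DHA, and in TGFb cells 22 of 32. These counts include members above background only without DHA, for which the filter favors a lower value. The share of all genes was not counted in this way. Of the 19 members measured on every array, 19 were lower in Snail and 10 in TGFb cells. In a culture, a lower signal from fewer cells that express a gene and from less RNA per cell cannot be told apart.

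**Figure D3:**
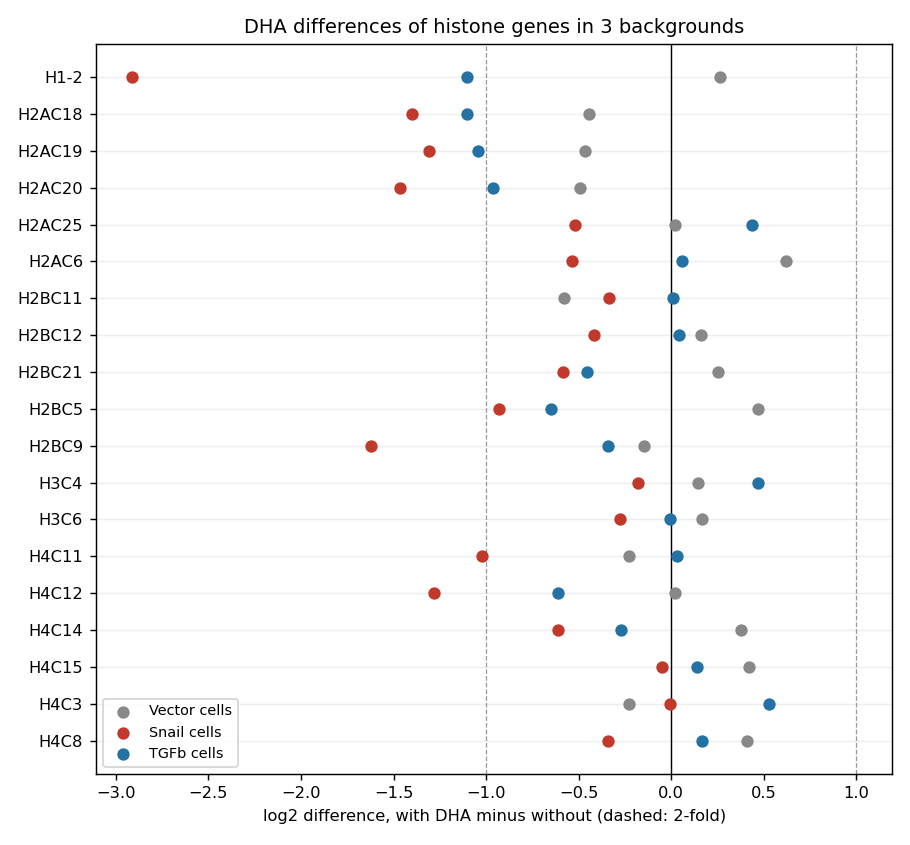
Log2 difference with DHA minus without (x axis) of the 19 histone genes above background on all 6 arrays, in Vector (grey), Snail (red) and TGFb (blue) cells; each point is 1 array against 1 array, and dashed lines mark 2-fold. All 19 points for Snail cells lie below 0, with H1-2 at −2.91, while 12 of the 19 points for Vector cells lie above 0.

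The linker histone gene H1-2 had the widest range of all members over the 6 arrays. Its log2 signal was 11.65 on Vector, 11.91 on DHA, 12.76 on Snail, 9.85 on Snail+DHA, 11.75 on TGFb and 10.65 on TGFb+DHA. The arrays of induced cells with DHA were the lowest and the Snail array was the highest. With DHA the signal was 7.53-fold lower in Snail cells and 2.15-fold lower in TGFb cells, and in Vector cells it differed by 0.26 on the log2 scale. The other H1 gene above background, H1-1 (HIST1H1A), was near background throughout, with 6.34, 6.62, 6.37, 6.61, 6.58 and 6.35 in the order Vector, DHA, Snail, Snail+DHA, TGFb and TGFb+DHA. H1-1 was above background on 3 arrays and its values overlapped between cells with and without DHA.

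Among the H2A genes measured on every array, 3 genes of the HIST2 cluster had lower values with DHA in every background. H2AC18 (HIST2H2AA3) had 11.64 on Vector, 11.19 on DHA, 11.25 on Snail, 9.85 on Snail+DHA, 11.67 on TGFb and 10.56 on TGFb+DHA. H2AC19 (HIST2H2AA4) had 11.25, 10.78, 11.02, 9.71, 11.20 and 10.16 in this order, and H2AC20 (HIST2H2AC) 10.64, 10.15, 10.50, 9.03, 10.71 and 9.75. In each of these genes all 3 arrays without DHA lay above all 3 arrays with DHA. Of the 19 members measured on every array, 4 (these and H2BC9) had no such overlap with DHA lower and 0 with DHA higher (all genes, 5.88% and 7.46%). With DHA, H2AC18 was 2.64-fold lower in Snail and 2.15-fold lower in TGFb cells, H2AC19 2.47-fold and 2.06-fold, and H2AC20 2.76-fold lower in Snail cells. H2AC18 and H2AC19 are copies of one gene: 299 of the 300 bases around their starts form 1 identical run, so their probes may read both and they do not count as independent. A second H2AC18 probe gave 10.47, 9.87, 10.14, 9.09, 10.45 and 9.52, the same order of arrays with and without DHA in each background. H2AC6 (HIST1H2AC) had 8.41, 9.03, 8.90, 8.37, 8.24 and 8.29, and H2AC25 had a higher value with DHA in TGFb cells. H2AC6 and H2AC25 thus did not share the pattern of these HIST2 genes. The pattern was not particular to them. H2AC21 (HIST2H2AB) had 7.05, 6.67, 6.84, 6.49, 6.86 and 6.71. H2AC17 (HIST1H2AM), of the HIST1 cluster, had 6.78, 6.67, 7.08, 6.31, 6.77 and 6.57. Both were lower with DHA in each background, but were near background and above it on 5 arrays.

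The H2B genes ranged widely. H2BC9 was 3.08-fold lower in Snail+DHA than in Snail cells, where its value had stood above all other arrays. H2BC5 (HIST1H2BD), known for its polyadenylated transcripts, had 9.67 on Vector, 10.14 on DHA, 10.48 on Snail, 9.55 on Snail+DHA, 9.84 on TGFb and 9.19 on TGFb+DHA. DHA was thus higher than Vector, while both induced backgrounds were lower with DHA, and a second probe gave the same directions (8.76, 9.27, 9.60, 8.71, 8.58 and 8.28). H2BC12 (HIST1H2BK) stayed between 12.28 and 13.01, with 12.85, 13.01, 12.70, 12.28, 12.71 and 12.76. Its lowest array was Snail+DHA, and its second probe, at 9.51 to 10.61, was lowest on TGFb instead. H2BC21 (HIST2H2BE) had 8.34, 8.59, 8.28, 7.69, 8.47 and 8.01, with both induced DHA arrays below the rest. H2BC11 (HIST1H2BJ) had 7.99, 7.41, 7.56, 7.22, 7.72 and 7.73 and was highest on Vector.

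H3 genes lay closest to background, with 8 of the 10 detected genes above it on 1 to 5 arrays. H3C8 (HIST1H3G) had 7.21 on Vector, 6.43 on DHA, 6.67 on Snail, 6.45 on Snail+DHA, 7.47 on TGFb and 6.39 on TGFb+DHA. Vector and TGFb were the highest arrays, and on TGFb+DHA the gene was not above background, at least 2.03-fold below TGFb (against the lowest signal above background there). H3C7 (HIST1H3F) had 7.28, 7.05, 7.24, 6.49, 7.19 and 6.86 and was lower with DHA in each background. H3C6 (HIST1H3E) had 7.06, 7.22, 7.46, 7.18, 6.96 and 6.95, and its arrays with and without DHA overlapped.

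The H4 genes divided by gene, although they encode one protein. H4C12 was 2.43-fold lower and H4C11 2.03-fold lower in Snail+DHA than in Snail cells, while in TGFb cells H4C11 differed by 0.03 and H4C12 by −0.61 on the log2 scale. H4C3 had 13.25 on both Snail arrays, with 13.48 on TGFb and 14.01 on TGFb+DHA, the highest of its values. H4C14 (HIST2H4A) had 7.93, 8.31, 8.43, 7.82, 7.82 and 7.55, and its copy H4C15 (HIST2H4B) 7.48, 7.90, 7.79, 7.74, 7.41 and 7.55. All 300 bases around the starts of this pair are identical, so the split of signal between them is uncertain. By class, over members above background on either array of the pair, the median DHA difference in Snail cells was −1.34 for 2 H1 genes, −0.60 for 9 H2A, −0.53 for 10 H2B, −0.36 for 6 H3 and −0.28 for 8 H4 genes. In TGFb cells it was −0.67 for 2 H1 genes, −0.15 for 9 H2A, −0.25 for 9 H2B, −0.26 for 6 H3 and 0.08 for 6 H4 genes, and in Vector cells the class medians lay between −0.11 for H2A and 0.27 for H1. The 2 H1 genes differed in direction in Snail cells, with −2.91 for H1-2 and 0.24 for H1-1, which was not above background on Snail. Members above background only without DHA enter these medians, and for them the filter favors a lower value. Over only the members above background on all 6 arrays, the H2A median was −1.31 in Snail and −0.96 in TGFb cells, the H2B median −0.58 and −0.34, and the H4 median −0.48 and 0.08. The 2 such H3 genes had −0.23 and 0.23, so the H3 direction in TGFb cells depended on which members were counted.

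The DHA difference was tested with the 3 backgrounds as replicates of it. In the limma fit over all 6 arrays 0 of 40 histone genes were called in either direction, as were 0.0% of all genes higher and 0.0% lower. At an unadjusted p of 0.05, 10 histone genes were lower and 0 higher, of 40, beside 7.46% lower and 5.12% higher of all 13522 genes. The lowest adjusted p of a member was 0.25, for H2AC18 (−0.98 ± 0.22, log2 difference ± SE) and H2AC19 (−0.94 ± 0.21). H1-2 had −1.25 ± 0.49 (adjusted p = 0.37) and H2AC20 −0.97 ± 0.22 (adjusted p = 0.25).

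Without the Vector background, so that the DHA difference was fitted over Snail and TGFb cells alone with 1 residual degree of freedom, limma called 6 of 40 histone genes lower and 0 higher, against 3.78% of all genes lower and 2.71% higher. They were H1-2 (−2.01 ± 0.32 SE, adjusted p = 0.0072), H2AC18 (−1.25 ± 0.19 SE, adjusted p = 0.0060), H2AC19 (−1.18 ± 0.19 SE, adjusted p = 0.0079), H2AC20 (−1.21 ± 0.21 SE, adjusted p = 0.0092), H4C12 (−0.95 ± 0.22 SE, adjusted p = 0.031) and H2BC5 (−0.79 ± 0.20 SE, adjusted p = 0.041). Each of the 6 was lower with DHA in both induced backgrounds, but these are the differences that the fit averaged, so this adds no separate support. Their SEs were drawn partly from the variance of all genes, since 1 residual degree of freedom gives little spread of their own. For H1-2 the differences lay far apart, at −2.91 in Snail and −1.10 in TGFb cells. H2AC18 and H2AC19 count as 1 for the reason given above.

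Whether the DHA difference of induced cells differed from that of Vector cells was tested as an interaction. Of the histone genes 0 were called (all genes, 0.141% higher and 0.148% lower), with 7 of 40 lower and 0 higher at an unadjusted p of 0.05 (all genes, 5.88% lower and 5.41% higher). H1-2 had the largest estimate, −2.27 ± 0.56 SE (limma, adjusted p = 0.12), followed by H2BC5 with −1.26 ± 0.35 SE (adjusted p = 0.16). The calls in induced cells are thus not shown to differ from Vector cells. The study set the Snail and TGFb arrays against the other 4 to find enriched pathways, not single genes. A limma fit of single genes with that grouping called 0 histone genes, 0.0% of all genes higher and 0.0% lower. No member reached an unadjusted p of 0.05 in it (all genes, 4.47% higher and 2.96% lower).

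The direction was also counted over the 19 histone genes measured on every array. All 19 were lower with DHA in Snail cells, 10 in TGFb cells and 7 in Vector cells. Lower in both induced backgrounds were 10 of 19 (52.6%), beside 35.2% of the 9121 genes measured on every array, and lower in all 3 backgrounds were 4 (21.1%, beside 18.4%). The Snail array enters both the Snail and the Snail+DHA differences, so the higher values in Snail without DHA and the lower differences with DHA are not independent for H4C12, H4C11, H2BC9 and H1-2.

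Many H2A and H2B genes start close to each other on opposite strands and share 1 promoter region. Among members with a promoter, 11 such pairs had starts 194 to 248 bases apart, and in 5 of them both genes were above background on at least 1 array, in 1 only one gene and in 5 neither. H2BC21 and H2AC20, with 236 bases between their starts, were both above background on all 6 arrays. With DHA, H2AC20 differed by −0.49, −1.46 and −0.96 in Vector, Snail and TGFb cells, and H2BC21 by 0.26, −0.58 and −0.46. The H2A gene had the lower difference in each background, and both genes were lower with DHA in the induced cells. H2AC25 was above background on all arrays, and its partner H2BC26 on none.

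Other genes of histone supply were set beside these from lists by function. The replication-independent variants, polyadenylated genes that supply histones outside S phase, had 12 of 15 measured members above background. Of these, 2 were called lower with DHA in induced cells by the same limma fit and 0 higher (all genes, 3.78% lower and 2.71% higher). They were H2AJ (−1.19, adjusted p = 0.0089), an H2A variant, and H1-10 (−1.07, adjusted p = 0.013), a linker histone. H2AJ had 11.51, 10.90, 12.005, 10.51, 11.46 and 10.57 in the order Vector, DHA, Snail, Snail+DHA, TGFb and TGFb+DHA, lower with DHA in each background. H1-10 had 9.15, 8.78, 9.31, 8.19, 9.73 and 8.71, again with each DHA array below its own background. H3-3A and H3-3B, the genes of the variant H3.3, had DHA coefficients of −0.47 and −0.58 over 3 backgrounds and were not called (adjusted p = 0.28 and 0.33). The list medians were −0.37, −0.22 and −0.01 in Vector, Snail and TGFb cells.

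Genes of histone mRNA processing and decay had 27 of 28 members above background, and 1 of the 27 was called higher and 1 lower in induced cells, near the share of all genes (2.71% higher and 3.78% lower). LSM10, a subunit of the U7 particle that processes the stem-loop end, had a DHA difference of 0.87 (adjusted p = 0.047). TUT4, a uridylyltransferase that tails RNAs for decay, had −0.81 (adjusted p = 0.035). NCBP2, SNRPB and the rest of the list were not called. Of 22 chaperone and deposition genes above background 0 were called in the same fit, IPO4, NAP1L4, RBBP4 and RBBP7 included.

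The S phase and DNA replication list had medians of the opposite sign to the histone genes in each background. Of its 45 genes above background, 12 were called higher with DHA in induced cells and 0 lower (all genes, 2.71% and 3.78%). Its median difference was −0.25 in Vector, 0.34 in Snail and 0.71 in TGFb cells, where the histone medians were 0.05, −0.52 and −0.21. RRM2, a subunit of ribonucleotide reductase, had 6.35 on Vector, 6.35 on DHA, 6.61 on Snail, 7.77 on Snail+DHA, 6.33 on TGFb and 7.89 on TGFb+DHA. The induced DHA arrays were the highest, with a difference of 1.36 (adjusted p = 0.0043). RRM2 was above background on 3 arrays and not on TGFb, so its difference in TGFb cells was taken from a background signal. MCM10, a replication initiation factor, had 7.70, 7.39, 7.36, 8.37, 7.29 and 9.15, and a difference of 1.43 (adjusted p = 0.0079). GINS2, a subunit of the replicative helicase, had 1.35 (adjusted p = 0.0060) and the flap endonuclease gene FEN1 1.25 (adjusted p = 0.010). Over all 3 backgrounds, limma called 0 genes of any of these 4 lists. The part of S phase activity in the histone values was not tested.

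Some epithelial markers were also lower with DHA in induced cells. Of the 6 measured, 3 were called lower in the limma fit over Snail and TGFb cells and 0 higher (all genes, 3.78% lower and 2.71% higher). They were the basal keratin genes KRT5 (−1.06, adjusted p = 0.0064) and KRT14 (−0.82, adjusted p = 0.031), and the luminal keratin gene KRT8 (−0.95, adjusted p = 0.020). CDH1 (−0.66, adjusted p = 0.11) was not called. EPCAM (0.33) and KRT18 (0.26) had higher values with DHA in that fit and were not called either. CDH1 and EPCAM were not above background on Snail or Snail+DHA, so their differences in Snail cells were between background signals. The median of the list was −0.05 in Vector, −1.05 in Snail and −0.72 in TGFb cells. Its summed linear signal was 30972 on Vector, 38388 on DHA, 5267 on Snail, 2513 on Snail+DHA, 44098 on TGFb and 27840 on TGFb+DHA. Of the 6 mesenchymal markers 1 was called lower in that limma fit (COL1A1, −0.92, adjusted p = 0.025) and 0 higher. Among those not called, COL3A1 (−1.20), ZEB1 (−0.15) and VIM (−0.14) were lower, and FN1 (0.42) and CDH2 (0.28) higher. COL3A1 was not above background on TGFb or TGFb+DHA, and ZEB1 was above it on Snail alone. The summed signal of the 6 mesenchymal markers was 3751, 4677, 25060, 19935, 11684 and 11099 in the same order of arrays. The part of these cell state markers in the histone values was not tested.

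**Figure D4:**
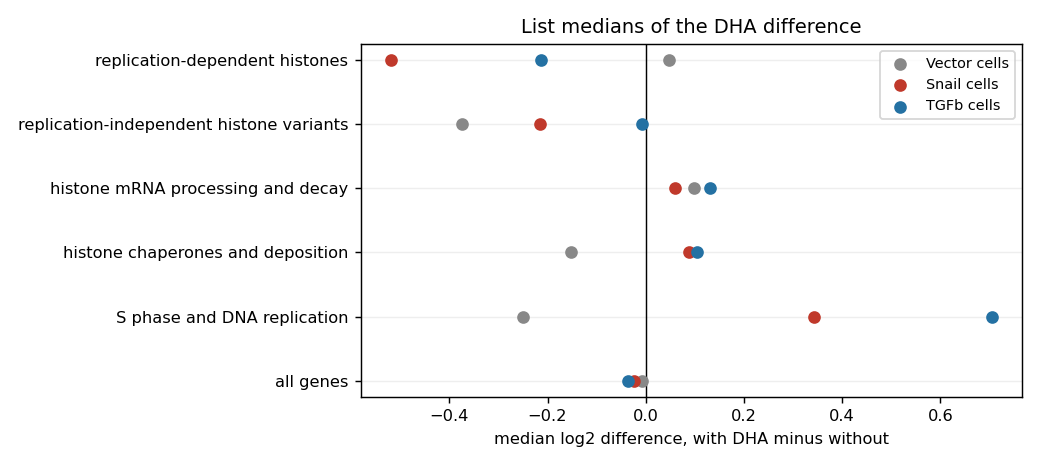
Median log2 difference with DHA minus without (x axis) of the replication-dependent histone genes, 4 lists of related function and all genes (y axis), over genes above background on either array of a pair, in Vector (grey), Snail (red) and TGFb (blue) cells. The histone median is −0.52 and the S phase median 0.34 in Snail cells, and −0.21 and 0.71 in TGFb cells.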

How the data were processed

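Total RNA of each culture was labelled with an oligo-dT primer and hybridized to 1 array per condition, the 6 arrays sharing 1 chip number in the labels. The authors deposited log2 values after quantile normalization, made with a GenePattern module, and a table of non-normalized intensities. The log base is inferred from the range. The deposited intensities hold 1431 to 1805 values per array above 65535 and have the same order as the log2 values, so each was read as the exponential (base e) of a log2 signal and turned back into that signal. Restored signals served for detection and as alternatives. A probe was above background at an estimated p of 0.05, from the peak of low signals and the spread below it. Of 47323 probes, 30113 have 1 gene symbol and 8 several. Genes were represented by the probe of highest mean, and 13522 were above background on at least 1 array. Older symbols came from RefSeq, by Entrez gene ID.

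In each pair of arrays, genes at least 2-fold apart were counted among those above background on either, with no test. Fits used limma 3.58.1 in R 4.3.3 with a trend of variance with mean and Benjamini-Hochberg adjustment at 0.05, and were tested on simulated data. SEs and p-values do not measure the spread between cultures. They combine the spread between backgrounds with a variance that limma estimates from all genes of similar mean. Alternatives were normexp with an offset of 50, scaling to a common median, other detection filters and probes, no variance trend, no block, and leaving out arrays. Named members were the 2 of highest mean per class, the 12 of widest range, those called in a fit and those 2-fold apart in a pair. A few others were named for a second probe, a copy, a shared promoter or a comparison of patterns, after their values were seen. Context genes were up to 4 per list, those called or, with none, those of largest DHA coefficient. The members and lists were chosen with earlier results of these data known.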

Additional observations from a re-analysis of the deposited data

How the results depend on the processing

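Leaving out each background in turn left 1 residual degree of freedom each time. It gave 0 to 6 histone genes called lower with DHA, the 6 only without Vector. All genes had 367 called higher and 511 lower without Vector, 0 and 17 without Snail, and 0 and 0 without TGFb. Scaling to a common median moved the median of all genes by DHA from −0.0060 to −0.18 in Vector, −0.015 to −0.14 in Snail and −0.021 to −0.13 in TGFb cells, and H4C3 and H4C8 then had DHA coefficients of −0.059 and −0.087 in place of positive ones. Leaving out a background in turn also gave both signs for H4C3 (−0.12 to 0.26, lowest without TGFb), H4C8 (−0.087 to 0.29, lowest without Vector), and H2AC25 (−0.25 to 0.23), H2BC12 (−0.19 to 0.10) and H3C6 (−0.14 to 0.079), highest without Snail. H2BC12 was 0.18 with the probe of highest variance, and none of these was called. H1-2 was higher in Snail than in Vector by 0.99 under the common median, just short of 2-fold. From all 40 detected members to those above background on all 6 arrays, the mean of the class medians over 3 backgrounds went from −0.29 to −0.90 for H2A and from −0.088 to 0.051 for H3. The causes were not tested beyond the fewer members or arrays used. Counted once per alternative, 149 counts and class medians stayed near their main value and 3 did not. Near meant within a fold limit for counts, and within the SD over the 3 backgrounds for medians. A count within its limit could still differ by a gene. Of the single-gene values, 230 kept their direction and side of the threshold, 8 reversed, 6 gained a call and 1 fell below 2-fold. The DHA fit pairs the arrays of each background by a block. Without that block 0 histone genes were again called (lowest adjusted p = 0.79, limma). At an unadjusted p of 0.05, 8 of 40 were lower and 0 higher (all genes, 3.30% lower and 2.82% higher).

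All-gene calls for TGFb went from 1 higher and 7 lower to 0 and 0 without the variance trend, 0 and 2 under the common median and 5 and 16 without Snail. For the interaction they went from 19 and 20 to 8 and 6 with normexp, 49 and 51 with the probe of highest variance, 37 and 52 with no filter and 9 and 10 with the stricter one.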
